A study of Arabidopsis thaliana with 12 samples.

Results

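SWEET1, SWEET16 and SWEET17 are 3 members of the SWEET family of sugar transporters in Arabidopsis thaliana. They were picked by name, as the single-gene probe sets annotated to AT1G21460 (probe set 260876_at, chromosome 1), AT3G16690 (258421_at, chromosome 3) and AT4G15920 (245524_at, chromosome 4). Each gene had 1 probe set, so the 3 members are 3 of the 22746 probe sets tested, and 3 of the 16 SWEET genes that the annotation used here gives a probe set of their own. Leaves labelled as 4 weeks old were profiled on 12 Affymetrix arrays, 1 for each of 3 biological replicates of 4 genotypes. The 4 were ssi2, ssi2 act1, ssi2 sid2 and wild type, and the labels give Col-0 as the genetic background of all 4. All plants were grown at 22 degrees, 65% relative humidity and a photoperiod of 14 hours with no further treatment named. All 3 mutant lines carry ssi2, and no act1 or sid2 single mutant was among the samples. SSI2 encodes the plastid desaturase that makes oleic acid, ACT1 the glycerol-3-phosphate acyltransferase of plastids, and SID2 the isochorismate synthase of salicylic acid synthesis. None of these 3 mutated genes had a single-gene probe set in the annotation used, so the genotypes were not checked against them here.

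SWEET proteins are membrane carriers that let sugars pass down their concentration gradient in either direction, without the proton coupling of the other large sugar carrier families. Members at the plasma membrane release sugar from cells or take it up, and members at the tonoplast, the membrane of the vacuole, move sugar between the vacuole and the cytosol. Sucrose leaves the phloem parenchyma of leaves through SWEET11 and SWEET12, and several family members are known to be induced by pathogens that feed on plant sugar. SWEET1 carries glucose across the plasma membrane. SWEET16 and SWEET17 lie at the tonoplast. SWEET16 carries glucose, fructose and sucrose, and SWEET17 is a fructose carrier that affects the fructose content of leaves.

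The values are linear signal intensities as deposited, and array medians lay between 95.8 and 158. In a principal component analysis 2 arrays lay far from their own genotype, ssi2 replicate 3 at -92.9 on a component with 17.5% of the variance and wild type replicate 2 at -98.8 on one with 15.1%. For the 3 members, calls that changed without these arrays are given. Values of other genes without them are mostly not given. The 8 measured mesophyll genes of 46 listed had summed signals of 83339 to 143210 in wild type and 76364 to 118853 in ssi2 and none was under a signal of 16 on all arrays of a genotype. The ranges were 88337 to 99867 in ssi2 act1 and 114587 to 127588 in ssi2 sid2. In whole leaves fewer cells of a type and less RNA per cell cannot be told apart.

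The plasma membrane carrier SWEET1 was high in ssi2 and ssi2 sid2 and low in wild type and ssi2 act1. Its signal was 442, 1054 and 261 on the wild type arrays and 1819, 1566 and 1985 on the ssi2 arrays. It was 397, 628 and 575 in ssi2 act1 and 2057, 853 and 1784 in ssi2 sid2. All ssi2 arrays lay above all wild type and all ssi2 act1 arrays, and in ssi2 sid2 replicate 2 was below the other 2. On the scale of log2(signal + 16), used for all differences below, the mean of SWEET1 was 9.01 ± 0.986 for wild type, 10.81 ± 0.171 for ssi2 and 9.08 ± 0.339 for ssi2 act1 (SD, n = 3). SWEET1 rose in ssi2 by 1.81 (SE 0.458, limma adjusted p = 0.0265), a 3.5-fold change. In ssi2 act1 it was lower than in ssi2, with a difference of -1.74 (SE 0.458, adjusted p = 0.0377).

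The same transcript in ssi2 sid2 had a mean of 10.53 ± 0.673 (SD, n = 3). The difference between ssi2 sid2 and ssi2 was -0.28, with a 95% interval of -1.28 to 0.72 (adjusted p = 0.849), an interval that holds differences in both directions. Against wild type ssi2 sid2 had 1.53 (interval 0.53 to 2.53), which did not pass the threshold (adjusted p = 0.072). Without wild type replicate 2, the array on which SWEET1 was highest among wild type arrays, that difference was 2.06 (adjusted p = 0.0098), and without ssi2 sid2 replicate 2 it was 1.91 (adjusted p = 0.0401). Over all fits without 1 array it was 1.08 to 2.06, with an adjusted p up to 0.247. It stayed uncalled in 17 of 20 alternatives. Between ssi2 act1 and wild type the difference was 0.07 (interval -0.93 to 1.07, adjusted p = 0.979). The order of the means was therefore ssi2, ssi2 sid2, ssi2 act1 and wild type, and no neighbours in this order passed the threshold.

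Both calls of SWEET1 were close to the threshold. They were lost with the replicate number as a block (adjusted p = 0.0511 against wild type and 0.0674 for ssi2 act1 against ssi2) and after median centring (0.0853 and 0.104), the first also with only the 6 arrays compared (0.0856) and the second at a pseudocount of 1 (0.0665). For ssi2 against wild type the adjusted p was 0.089 without wild type replicate 1, 0.101 without wild type replicate 3, and 0.0686, 0.0698 and 0.0639 without ssi2 replicate 1, 2 and 3, while the difference itself stayed between 1.36 and 2.34. For ssi2 act1 against ssi2 it was 0.0534 without wild type replicate 1, 0.0538 without ssi2 sid2 replicate 3, 0.0947, 0.0962 and 0.0786 without ssi2 replicate 1, 2 and 3, and 0.103, 0.0749 and 0.0911 without ssi2 act1 replicate 1, 2 and 3. The difference stayed between -1.86 and -1.54 in these fits.

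Of 15 listed markers of senescing leaf, 3 were measured (SAG101, WRKY6 and WRKY53). All 3 were called higher in ssi2 than in wild type and lower in ssi2 act1 than in ssi2, the directions of SWEET1. Of all probe sets, 5.77% were higher in the first comparison and 5.2% lower in the second. In ssi2 sid2 against wild type 2 of the 3 were higher, WRKY6 (limma adjusted p = 0.00557) and WRKY53 (0.00478), where 3.62% of all probe sets were. The summed signal of the 3 markers was 162 to 305 in wild type, 2109 to 2632 in ssi2, 308 to 371 in ssi2 act1 and 679 to 1512 in ssi2 sid2. In ssi2 sid2 against ssi2 their median difference was -1.27, where SWEET1 had -0.28. In that comparison 0 of the 3 were called, where 3.13% of all probe sets were. None of the 3 was under a signal of 16 on all arrays of a genotype. SAG29, a SWEET gene of senescing leaves given below, had -2.45 in ssi2 sid2 against ssi2 (adjusted p = 0.0312, lost in 8 of 19 alternatives). The part of these genes in the SWEET differences was not tested. Of the 8 mesophyll genes, none was called between ssi2 and wild type or between either double mutant and ssi2. The shares over all probe sets there were 10.1%, 8.37% (ssi2 act1) and 3.13% (ssi2 sid2). Against wild type, PSAN was lower in ssi2 act1 (adjusted p = 0.0447, lost in 12 of 20 alternatives). SBPASE was higher in ssi2 sid2 than in wild type (adjusted p = 0.0391, lost in 10 of 20). The median difference of the 8 genes in ssi2 against wild type was -0.54. Values were negative for LHCB4.1, PSAE-1, PSAN, PSBW and PSBY (-0.75 to -0.53) and positive for RCA, PRK and SBPASE (0.24 to 1.17). The 3 root genes summed to 47.9 to 105 in wild type and 73.4 to 352 in ssi2, where 1 of them was under 16 on all arrays. Among them PYK10 was higher in ssi2, with 308, 214 and 37.2 against 21.5, 27.2 and 38.0 in wild type (adjusted p = 0.0448, lost in 16 of 19 alternatives, up to 0.171), and the high values were those of ssi2 replicates 1 and 2. In the same genotypes the 2 guard cell genes summed to 216 to 291 and 177 to 366. The 1 measured phloem gene, OPS, had signals of 9.06 to 27.1 and 12.6 to 47.3.

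SWEET16, a vacuolar carrier of hexoses and sucrose, was lowest in ssi2 and highest in ssi2 act1. Its signal was 306, 248 and 172 in wild type and 104, 80.1 and 63.7 in ssi2. It was 342, 463 and 249 in ssi2 act1 and 140, 224 and 91.0 in ssi2 sid2. The ssi2 arrays were the lowest of the 12 but for ssi2 sid2 replicate 3, which lay among them, and the ssi2 act1 arrays overlapped with those of wild type. Its mean was 7.97 ± 0.394 for wild type, 6.60 ± 0.294 for ssi2 and 8.48 ± 0.426 for ssi2 act1 (SD, n = 3). SWEET16 fell in ssi2 by 1.37 (SE 0.345, adjusted p = 0.0254). It was higher in ssi2 act1 than in ssi2 by 1.88 (SE 0.345, adjusted p = 0.00618), a 3.67-fold change. This call held in all 20 alternatives, with an adjusted p of 0.00333 to 0.0308.

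In ssi2 sid2 the mean of SWEET16 was 7.31 ± 0.582 (SD, n = 3), between those of ssi2 and wild type. Neither difference passed the threshold, with 0.71 against ssi2 (interval -0.05 to 1.46, adjusted p = 0.344) and -0.67 against wild type (interval -1.42 to 0.09, adjusted p = 0.321). Between ssi2 act1 and wild type it was 0.50 (interval -0.25 to 1.26, adjusted p = 0.637). No neighbours in the order ssi2 act1, wild type, ssi2 sid2 and ssi2 passed the threshold, while wild type and ssi2, and ssi2 act1 and ssi2, did. The decrease in ssi2 was not called without wild type replicate 1 (adjusted p = 0.102), ssi2 replicate 2 (0.0843) or ssi2 replicate 3 (0.0715), nor without both outlying arrays, where it was -1.19 (0.0984).

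SWEET17, the vacuolar fructose carrier, was high in wild type and ssi2 sid2. Its signal was 1753, 2911 and 1311 in wild type and 1021, 541 and 139 in ssi2. It was 658, 738 and 559 in ssi2 act1 and 2429, 1242 and 2109 in ssi2 sid2. The arrays of wild type and ssi2 sid2 all lay above those of ssi2 and ssi2 act1, and the ssi2 arrays were the most spread. Its mean was 10.89 ± 0.577 for wild type and 8.81 ± 1.4 for ssi2 (SD, n = 3). SWEET17 fell in ssi2 by 2.09 (SE 0.57, adjusted p = 0.0375). Without ssi2 replicate 3, the lowest array, the difference was -1.32 (adjusted p = 0.0683), and without both outlying arrays it was -1.01 (adjusted p = 0.125).

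Other single arrays also decided that call. The adjusted p was 0.0903, 0.0916 and 0.0543 without wild type replicate 1, 2 and 3, 0.0825 without ssi2 replicate 2, 0.0515 and 0.0542 without ssi2 act1 replicate 2 and 3, and 0.0515 and 0.0548 without ssi2 sid2 replicate 1 and 3. The mean of SWEET17 was 10.87 ± 0.505 in ssi2 sid2 and 9.37 ± 0.196 in ssi2 act1 (SD, n = 3). The difference between ssi2 sid2 and ssi2 was 2.06 (SE 0.57, interval 0.82 to 3.31), the arrays did not overlap, and the adjusted p was 0.0786. By size alone, which leaves out the spread, 0.589% of probe sets had as large a positive difference in that comparison. Without ssi2 replicate 1 it was 2.67 and passed the threshold (adjusted p = 0.0262), and without ssi2 replicate 3 it was 1.30 (adjusted p = 0.157). Between ssi2 sid2 and wild type the difference was -0.024 (interval -1.27 to 1.22, adjusted p = 0.993).

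With act1 SWEET17 had 0.57 against ssi2 (interval -0.67 to 1.81, adjusted p = 0.639), and -0.20 without ssi2 replicate 3. Against wild type ssi2 act1 had -1.52 (interval -2.76 to -0.28, adjusted p = 0.262), with no overlap of the arrays. The order of the means was wild type, ssi2 sid2, ssi2 act1 and ssi2, and of its 6 comparisons only that of ssi2 with wild type passed the threshold.

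**Figure D1:**
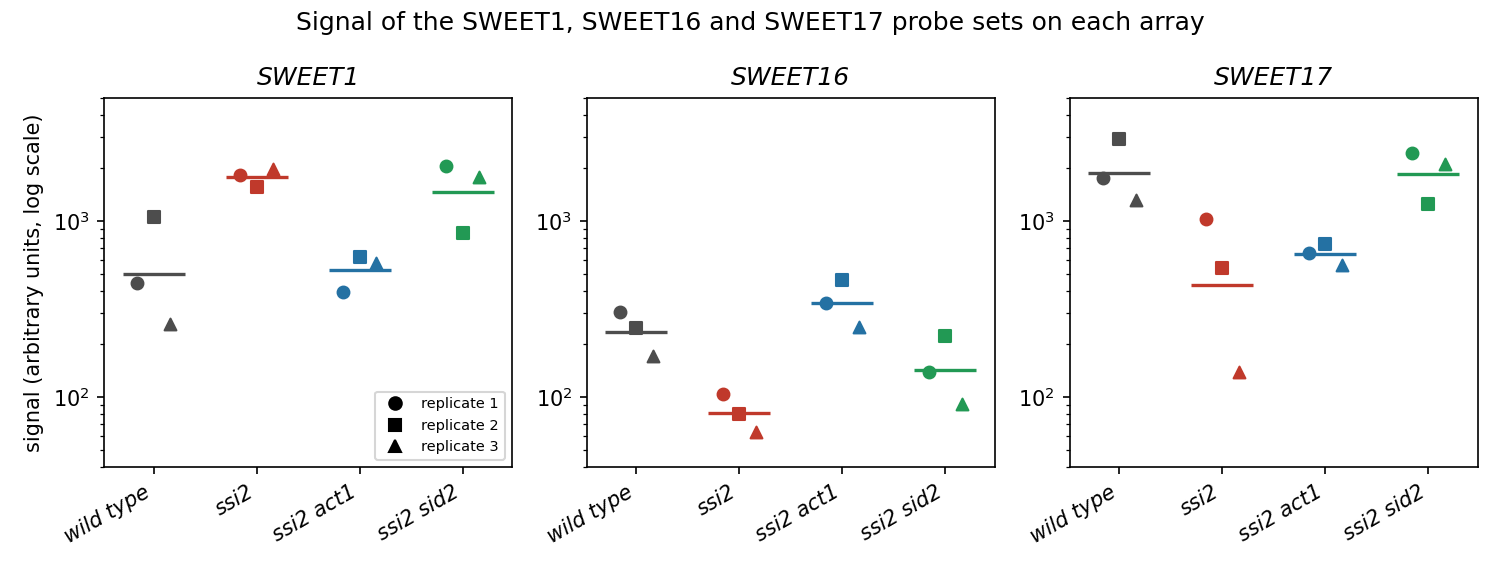
Signal (log axis, arbitrary units) of the SWEET1, SWEET16 and SWEET17 probe sets on each of the 12 arrays. Symbols mark the replicate number and bars the mean on the log2(signal + 16) scale, turned back to signal; SWEET1 in ssi2 lies at 1566 to 1985 against 261 to 1054 in wild type, and SWEET17 in ssi2 spreads from 139 to 1021.

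All 3 members passed the threshold between ssi2 and wild type, 1 higher and 2 lower, in a comparison where 10.1% of probe sets passed (5.77% higher and 4.34% lower). Of all probe sets, 25.2% had no overlap between the arrays of these genotypes, as all 3 members did. Between ssi2 act1 and ssi2 it was 2 of 3, SWEET1 lower and SWEET16 higher, against 8.37% of probe sets (3.17% higher and 5.2% lower). The arrays of these genotypes did not overlap for the same 2 members, as for 24% of probe sets. Between ssi2 sid2 and ssi2 none of the 3 passed in limma, where 3.13% of probe sets did (1.42% higher and 1.71% lower). SWEET17 had no overlap there, as did 23.9% of probe sets, and it alone had an unadjusted p under 0.05 (0.00357). The members were chosen with earlier results of these data known, and the comparisons share the ssi2 arrays, so these counts are a description.

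The act1 and sid2 lines were also compared directly, which tests whether SWEET levels differed between the second mutations. SWEET1 had -1.46 in ssi2 act1 against ssi2 sid2 (SE 0.458, adjusted p = 0.0865), SWEET16 had 1.17 (SE 0.345, adjusted p = 0.068) and SWEET17 had -1.49 (SE 0.57, adjusted p = 0.16). The arrays of the 2 lines did not overlap for any of the 3 genes, as for 26.7% of all probe sets. None of the 3 passed the threshold, where 6.4% of probe sets did (2.44% higher and 3.96% lower), although the unadjusted p-values were 0.00813, 0.00546 and 0.0224. SWEET1, SWEET16 and SWEET17 stayed uncalled in 17, 18 and 17 of 20 alternatives, with an adjusted p up to 0.286, 0.286 and 0.393. Each passed in some fits without 1 array. For SWEET1 the adjusted p was 0.0253 without wild type replicate 2 and 0.0428 without ssi2 sid2 replicate 2. For SWEET16 it was 0.0325 without ssi2 sid2 replicate 2, and for SWEET17 0.0325 without ssi2 replicate 3. With the replicate number as a block, SWEET16 also passed (adjusted p = 0.0341), and SWEET17 did with only the 6 arrays compared (0.028). Whether these genes differ between the double mutants thus depends on the fit.

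Against wild type no member passed in ssi2 act1 (1.79% of probe sets did, 0.664% higher and 1.13% lower) or in ssi2 sid2 (6.41% did, 3.62% higher and 2.79% lower). Arrays did not overlap for 1 member, SWEET17, in ssi2 act1 against wild type (16.5% of probe sets) and for 0 in ssi2 sid2 against wild type (26%). The unadjusted p was under 0.05 for SWEET17 in the former (0.0207) and SWEET1 in the latter (0.00611).

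**Figure D2:**
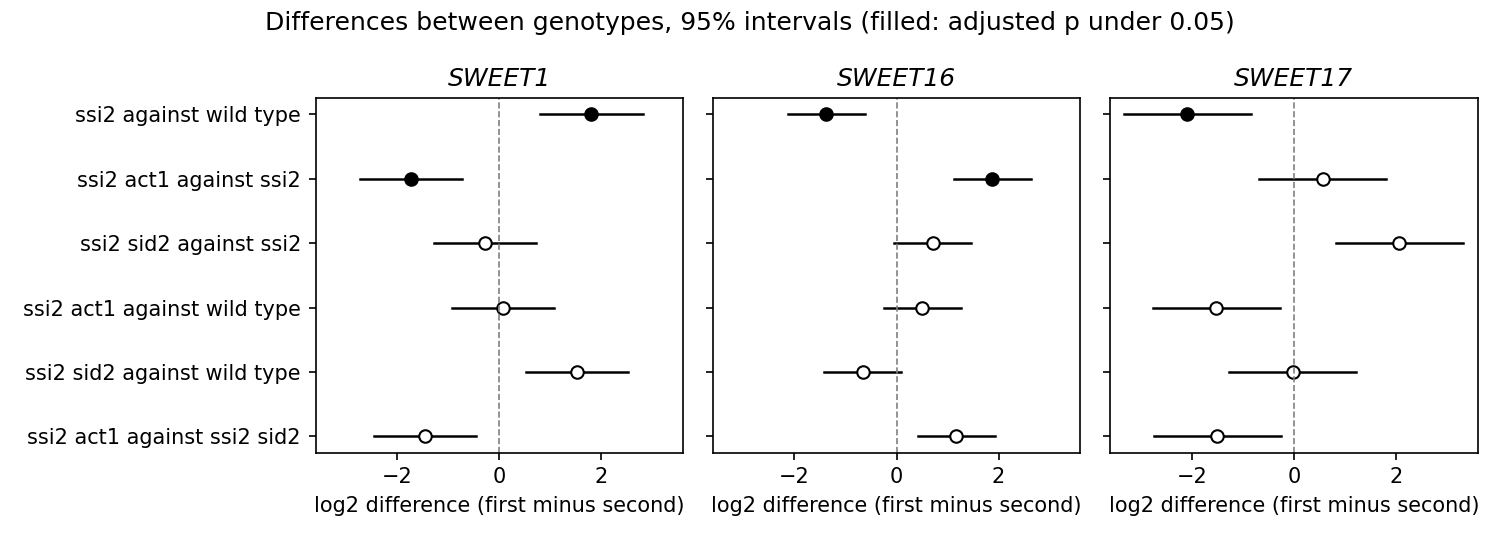
Differences between genotypes on the log2(signal + 16) scale for the 3 genes in all 6 comparisons, first genotype minus second. Points are limma estimates from all 12 arrays and lines their 95% intervals; filled points passed an adjusted p of 0.05, which were SWEET1 at 1.81 and -1.74, SWEET16 at -1.37 and 1.88, and SWEET17 at -2.09.

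**Figure D3:**
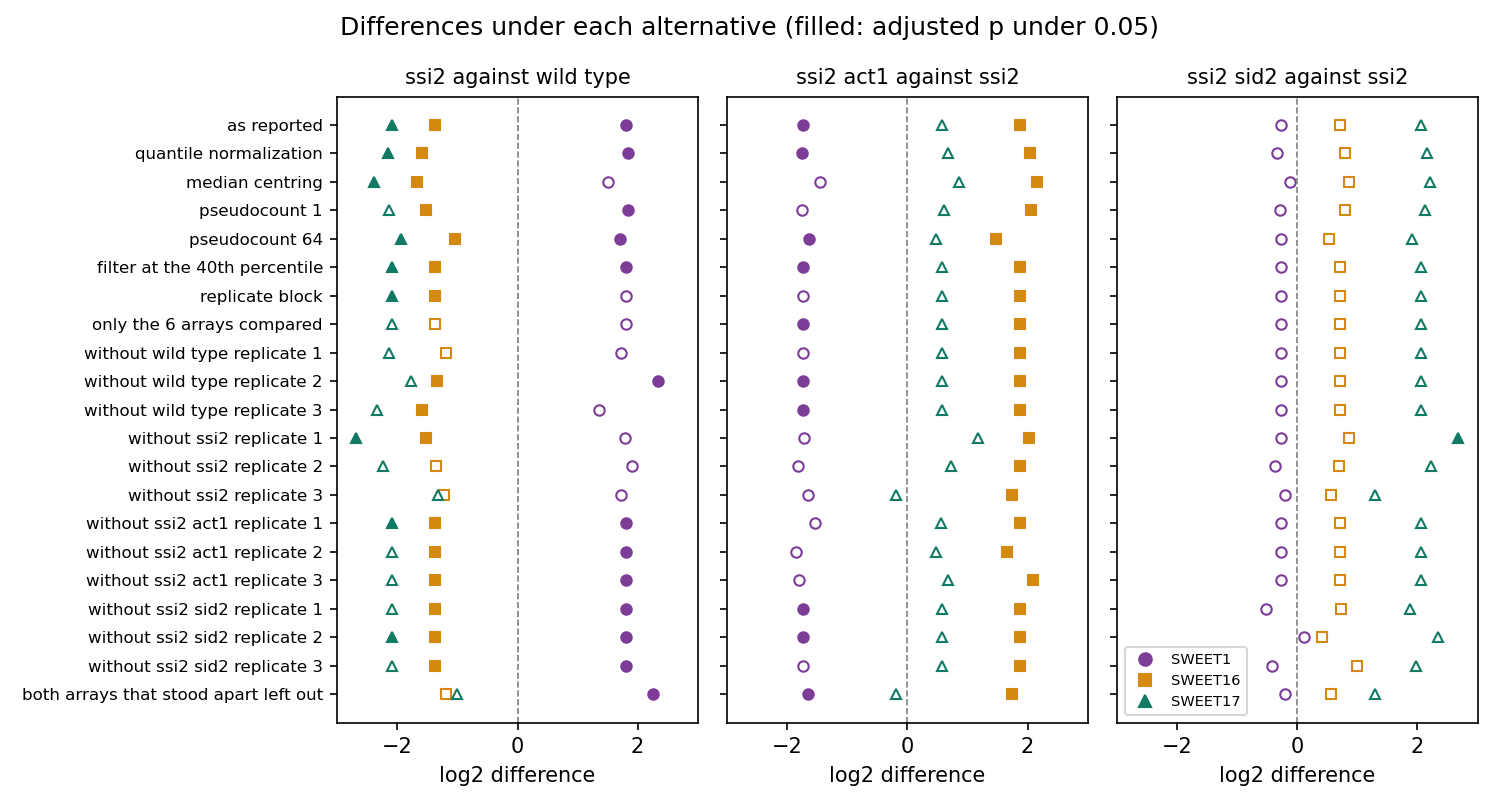
The same differences (x axis, log2) under each alternative processing and without each array in turn (y axis) for ssi2 against wild type and for each second mutation against ssi2. Filled symbols passed an adjusted p of 0.05; the increase of SWEET16 in ssi2 act1 against ssi2 is filled in every setting drawn, and SWEET17 in ssi2 against wild type moves from -2.09 to -1.32 without ssi2 replicate 3.

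Of the 17 SWEET genes 16 were measured, and SWEET12 was not analysed here. Of the 13 measured SWEET genes other than the 3 members, 8 had signals under 100 on all 12 arrays (SWEET3, AtVEX1, also named SWEET5, SWEET6 to SWEET10 and SWEET14). Between ssi2 and wild type 1 of the 13 was higher and 0 lower, where 5.77% and 4.34% of all probe sets were. The median difference of the 13 was 0.29, against 0.08 over all probe sets, with a range of -1.88 to 2.34. The higher gene was SAG29, also named SWEET15, a sucrose carrier of senescing leaves and seeds. In ssi2 act1 against ssi2, 0 of the 13 were higher and 1 lower (3.17% and 5.2% of all probe sets). The median was -0.51, against -0.04 over all probe sets. In ssi2 sid2 it was 0 and 1 against ssi2 (1.42% and 1.71%, median 0.002). Against wild type it was 0 and 1 in ssi2 sid2 (3.62% and 2.79%, median 0.05) and 0 and 0 in ssi2 act1 (0.664% and 1.13%, median 0.004). In ssi2 act1 against ssi2 sid2 it was 0 and 1 (2.44% and 3.96%), with a median of -0.28 against 0.01.

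The signal of SAG29 was 16.6, 3.69 and 9.28 in wild type and 212, 195 and 28.2 in ssi2. It was 27.6, 6.57 and 10.2 in ssi2 act1 and 2.36, 14.1 and 7.50 in ssi2 sid2. The 2 high values were those of ssi2 replicates 1 and 2, and the other 10 arrays lay at or below 28.2. SAG29 rose by 2.34 in ssi2 (SE 0.54, adjusted p = 0.0167) and fell by 2.12 with act1 (adjusted p = 0.0323) and by 2.45 with sid2 (adjusted p = 0.0312). Most signals lay near or under 16, and both the sizes and the calls depend on the pseudocount. The calls with act1 and sid2 were lost at a pseudocount of 1 (0.0674 and 0.0513) and of 64 (0.0524 and 0.0575), and all 3 calls with only the 6 arrays compared (0.0883, 0.101 and 0.0948). They were also lost without ssi2 replicate 1 (0.0636, 0.114 and 0.0922, in the same order) and without ssi2 replicate 2 (0.0832, 0.142 and 0.123). The first was also lost without wild type replicate 3 (0.051), the second without ssi2 act1 replicate 2 or 3 (0.11 and 0.106), and the third without ssi2 sid2 replicate 1, 2 or 3 (0.125, 0.0589 and 0.12).

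Calls were also made for SWEET4 and SWEET2. SWEET4, a hexose carrier of the plasma membrane, was lower in ssi2 sid2 than in wild type by 2.69 (adjusted p = 0.0162), with signals of 95.6, 71.9 and 116 against 323, 2124 and 469. Its call was lost without ssi2 sid2 replicate 1 (0.0575) or 3 (0.0562), and in a fit of the 6 arrays alone (0.0696). SWEET4 signals were also below all wild type arrays in ssi2 (132, 310 and 130) and ssi2 act1 (188, 152 and 197). These differences of -1.88 and -1.86 did not pass (adjusted p = 0.0574 and 0.15). SWEET2, a vacuolar glucose carrier, was lower in ssi2 act1 than in ssi2 sid2 by 2.79 (adjusted p = 0.0405), with 189, 313 and 420 against 2053, 1849 and 2498. This call was lost in 12 of 20 alternatives, among them without any single array of either line (0.0702 to 0.154), without wild type replicate 3 (0.0503) and without ssi2 replicate 2 (0.0508). The sucrose exporter SWEET11 had signals of 4873, 7821 and 6785 in wild type and 4131, 3798 and 3441 in ssi2, a difference of -0.75 (interval -1.34 to -0.16, adjusted p = 0.109), and is named here after its values were seen.

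**Figure D4:**
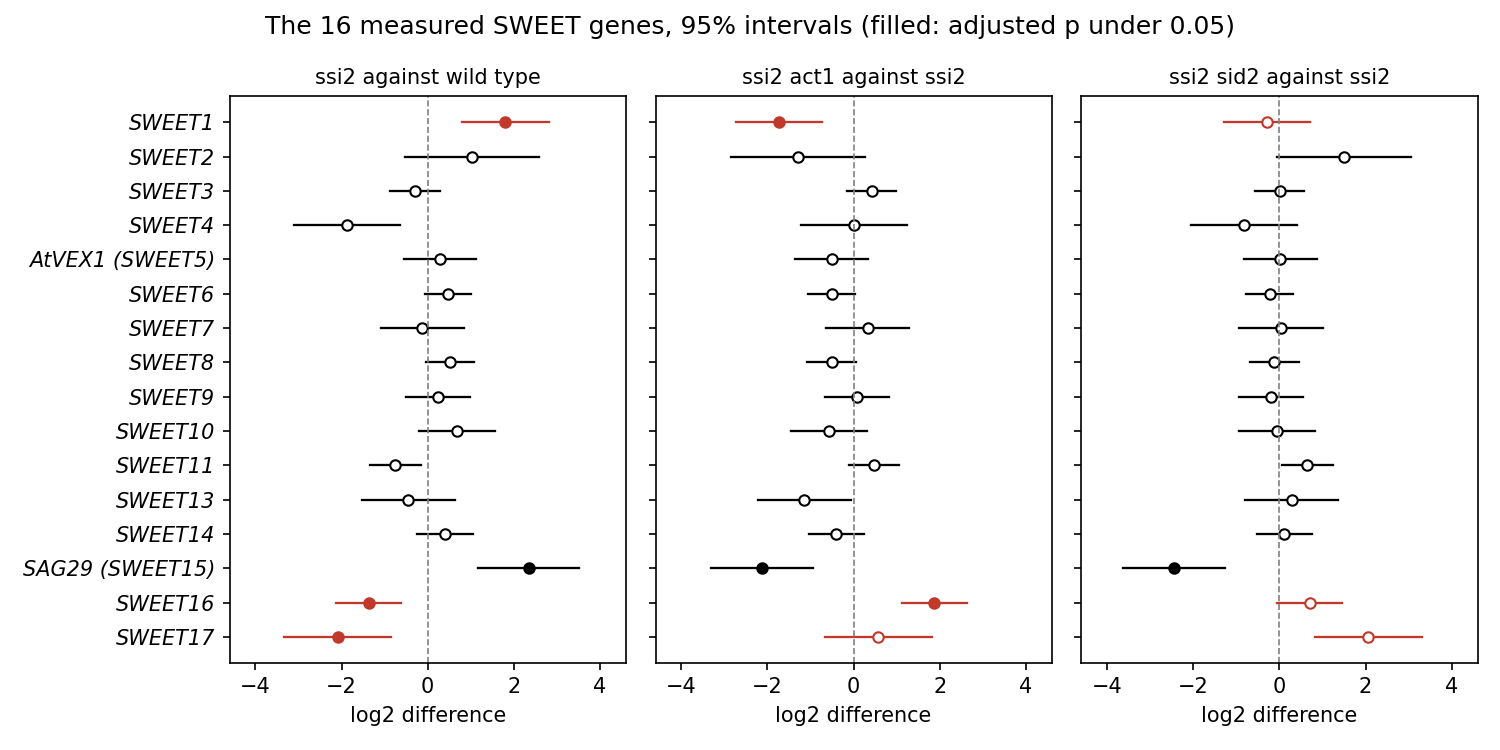
Log2 differences with 95% intervals for all 16 measured SWEET genes in 3 comparisons, with SWEET1, SWEET16 and SWEET17 in red. Filled points passed an adjusted p of 0.05; in the first panel these are SWEET1, SAG29, SWEET16 and SWEET17, and in the third SAG29 is the only one.

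Of 127 further genes listed for sugar transport and metabolism (sucrose and hexose symporters, vacuolar, polyol and plastid carriers, invertases, sucrose enzymes, hexose kinases and sugar starvation genes), 34 were measured. Between ssi2 and wild type 2 were higher and 1 lower, where 5.77% and 4.34% of all probe sets were, with a median difference of 0.04. Between ssi2 act1 and ssi2 0 were higher and 4 lower (3.17% and 5.2% of all probe sets), with a median of -0.15. Between ssi2 sid2 and ssi2 it was 0 and 1 (1.42% and 1.71%), with a median of 0.05. The medians over all probe sets were 0.08, -0.04 and -0.07 in these comparisons. Against wild type 1 was higher and 1 lower in ssi2 act1 (0.664% and 1.13% of all probe sets). In ssi2 sid2 against wild type it was also 1 and 1 (3.62% and 2.79%). Between ssi2 act1 and ssi2 sid2 it was 1 and 3 (2.44% and 3.96%). None of the 9 sucrose symporter genes or the 17 sugar starvation genes listed had a single-gene probe set.

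The gene annotated as a fructan exohydrolase, cwINV6, was in the invertase list. Its signal was 25.3, 21.8 and 47.4 in wild type, 219, 556 and 442 in ssi2, 8.67, 46.5 and 47.9 in ssi2 act1, and 114, 102 and 113 in ssi2 sid2. It rose by 3.09 in ssi2 (SE 0.413, adjusted p = 0.000682) and fell by 3.10 with act1 (adjusted p = 0.00103), and both calls held in all 20 alternatives. The sucrose phosphate synthase gene ATSPS4F had 28.2, 64.2 and 41.4 in wild type, 529, 655 and 94.4 in ssi2, 105, 46.6 and 29.6 in ssi2 act1, and 942, 2228 and 1837 in ssi2 sid2. It was high in ssi2 sid2 on all 3 arrays. Its differences of 4.75 between ssi2 sid2 and wild type (adjusted p = 0.00185) and of -4.50 between ssi2 act1 and ssi2 sid2 (adjusted p = 0.00308) held in all 20 alternatives. Those of 2.54 between ssi2 and wild type (adjusted p = 0.0225) and -2.29 between ssi2 act1 and ssi2 (adjusted p = 0.0431) were lost in 5 and 14 of them (highest adjusted p 0.106 and 0.178). AT2G31390, of the hexose kinase list, fell by 2.2 with act1 in the ssi2 background (adjusted p = 0.00676) in all 20 alternatives. Against wild type it had -1.91 in ssi2 act1 (adjusted p = 0.0393, lost in 15 alternatives, up to 0.189).

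Among other carriers, SFP2 had -1.12 in ssi2 against wild type (adjusted p = 0.0326), with signals of 108, 83.9 and 79.4 against 279, 180 and 195, and its call was lost in 7 of 20 alternatives, up to 0.125. AT3G05400, of the list of vacuolar and related carriers, had signals of 104, 156 and 12.9 in ssi2 and 2.84, 5.08 and 4.52 in ssi2 act1. The latter lie under the pseudocount, so the size of its difference depends on that choice. It was -2.07 (adjusted p = 0.0339, lost in 9 of 19 alternatives, up to 0.143) and ran from -3.6 to -1.06 over the alternatives. AT5G18840, of the same list, had 2.45 in ssi2 act1 against wild type (adjusted p = 0.0133, lost in 3 of 20, up to 0.111). AT5G61520, of the hexose symporter list, was the lowest in ssi2 sid2, with 301, 355 and 177 against 584 to 1150.2 on the other 9 arrays. It had 1.70 in ssi2 act1 against ssi2 sid2 (adjusted p = 0.00954), which was lost without ssi2 sid2 replicate 3 (0.0559). Against wild type and ssi2, ssi2 sid2 had -1.50 and -1.32 (adjusted p = 0.0173 and 0.0469), lost in 4 and 15 alternatives, up to 0.0903 and 0.207. AT1G19450 and the plastid carrier list's AT5G17630 had -2.66 and -1.29 in ssi2 act1 against ssi2 sid2 (adjusted p = 0.0351 and 0.0451), lost in 9 and 11 alternatives, up to 0.151 and 0.194.

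Transcripts of the genes beside the 3 SWEET loci, looked at after the data had been seen, give the setting of these differences on the chromosome. Among the 5 nearest measured genes on each side, between ssi2 and wild type, 1 was higher and 1 lower around SWEET1, 2 were higher and 0 lower around SWEET16, and 0 of 10 were called around SWEET17. Their median differences were 0.06, 0.55 and 0.10. The shares over all probe sets there were 5.77% higher and 4.34% lower. The higher neighbour of SWEET1 was AT1G21520, the 4th measured gene on one side, with 3.47 (adjusted p = 0.000888), and with act1 it had -4.22 against ssi2 (adjusted p = 0.00039), the directions of SWEET1. In ssi2 act1 against ssi2, 2 neighbours of SWEET1 were lower and none of SWEET16 or SWEET17 was called, where 5.2% of all probe sets were lower and 3.17% higher. AT1G21520 is named after its values were seen.

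The genes most like each member over the 12 arrays were taken from 7342 other genes with a mean signal above the 40th percentile. For SWEET1 these were AT5G39670, MSRB9, a methionine sulfoxide reductase gene, and AT3G47480, with Pearson's r of 0.94, 0.93 and 0.93 and Spearman's rho of 0.92, 0.87 and 0.90. For SWEET16 they were AT1G67910, AT3G18215 and AT5G61590, with r of 0.92, 0.91 and 0.91 and rho of 0.92, 0.81 and 0.87. For SWEET17 they were AT5G43140, CLPP4, a subunit gene of the plastid Clp protease, and AT3G44020, with r of 0.94, 0.92 and 0.92 and rho of 0.93, 0.89 and 0.91. These values were the highest of many and the 12 points share genotypes and arrays, so no p is given.

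Single arrays show the likeness for which these genes were chosen. On ssi2 replicate 3, where SWEET17 had a signal of 139, AT5G43140, CLPP4 and AT3G44020 had 142, 2580 and 73.9, each the lowest of its 12 values. On ssi2 sid2 replicate 2, where SWEET1 had 853, AT5G39670, MSRB9 and AT3G47480 had 562, 181 and 481, each the lowest of that genotype.

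**Figure D5:**
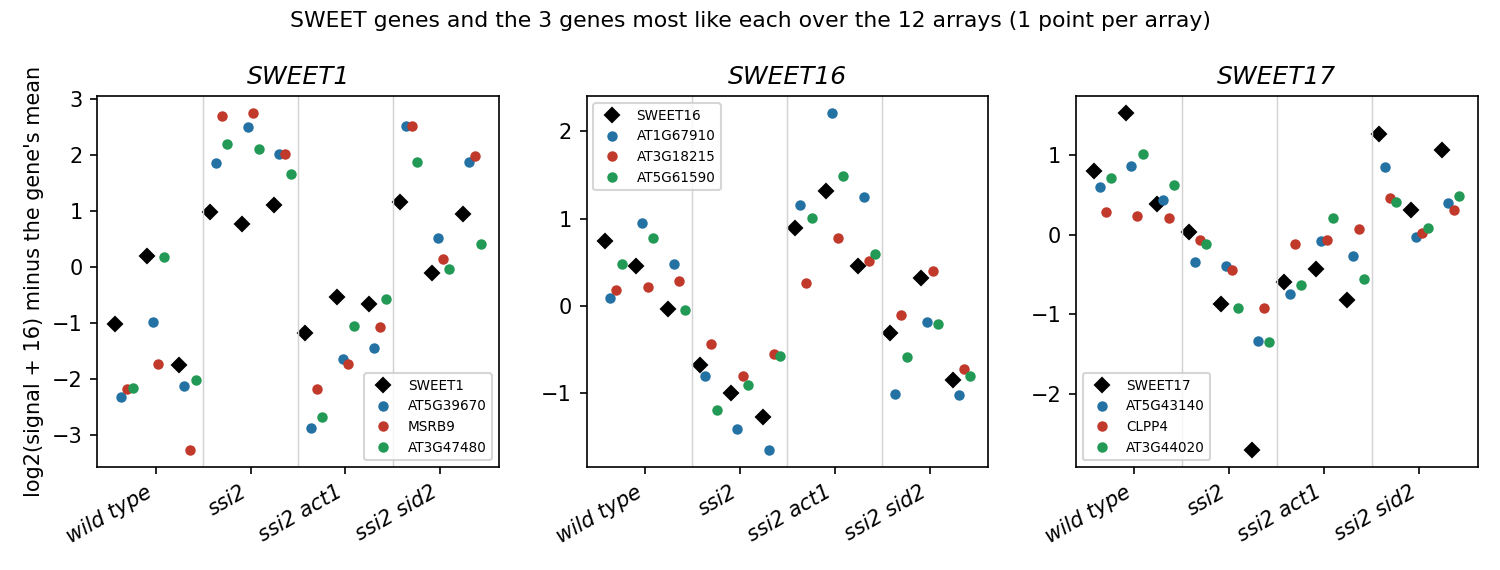
Values of log2(signal + 16) minus each gene's mean over the 12 arrays, for each member (black diamonds) and the 3 genes most like it (coloured circles), by genotype. Points are single arrays; AT5G39670, MSRB9 and AT3G47480 span a wider range than SWEET1, and SWEET17 spans a wider range than the genes most like it.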

How the data were processed

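The authors deposited linear signal intensities of 22810 probe sets. Affymetrix Expression Console 1.0 is named in the submitters' processing notes. The summary algorithm, scaling and annotation build: not given in the sources used here. Trimmed means of the arrays were all close to 500.05, as after scaling to a common target, which was kept. For this report 64 control probe sets were left out and values taken as log2(signal + 16), which understates differences of dim genes. limma 3.58.1 under R 4.3.3 was fitted to all 12 arrays with 1 mean per genotype, eBayes moderation, two-sided tests and Benjamini-Hochberg adjustment over 22746 probe sets, calling an adjusted p under 0.05. The fit was also run on simulated independent normal values. These held no outlying arrays, so that run cannot test calls that turn on single arrays.

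Names came from the platform annotation (13513 single-gene probe sets), updated through RefSeq's TAIR10.1 table, of which only names and gene order were used. A gene with several probe sets was represented by the one with the highest mean. Members and lists were chosen with earlier results of these data known. The rule for named genes took, besides the members, up to 4 called genes per list and comparison and the 3 genes most like each member. It also took the largest difference of each list without a call, which are not given here.

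Replicates of a genotype correlated at 0.914 to 0.982 across probe sets, and no pair was identical. The titles call them biological and do not say whether the plants were raised separately. The p-values thus reflect only how far these samples spread, which may be technical. Precision is limited by the number of arrays. No scan date or batch was given in the labels. The alternatives were 2 other normalizations, pseudocounts of 1 and 64, a block for the replicate number, a filter that kept probe sets above the 40th percentile, only the 6 arrays compared, and fits without 1 array or without both outlying arrays.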

Additional observations from a re-analysis of the deposited data

How the results depend on the processing

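Of the 360 recalculated differences of the 3 genes, 302 kept their direction and side of the threshold. That count includes differences that were not called to begin with. Calls in ssi2 against wild type were lost in 8 of 20 alternatives for SWEET1, 5 for SWEET16 and 12 for SWEET17. For SWEET1 in ssi2 act1 against ssi2 it was 11 of 20. These counts include the fits without 1 array. The increase of SWEET16 in ssi2 act1 against ssi2 was called in all 20. For SWEET1 in ssi2 against wild type the call was lost after median centring (1.51), with the replicate block (1.81, adjusted p = 0.0511) and with only the 6 arrays compared (1.81), and for ssi2 act1 against ssi2 after median centring (-1.45), at a pseudocount of 1 (-1.76) and with the replicate block (-1.74, adjusted p = 0.0674). For SWEET16 in ssi2 it was lost with only the 6 arrays (-1.37) and without both outlying arrays, wild type replicate 2 and ssi2 replicate 3 (-1.19), and for SWEET17 in ssi2 at a pseudocount of 1 (-2.14), with the 6 arrays (-2.09) and without both arrays (-1.01). Calls were gained without both arrays for SWEET1 in ssi2 sid2 against wild type (2.06) and, between ssi2 act1 and ssi2 sid2, for SWEET1 (-1.46) and SWEET17 (-1.49, and -1.49 with the 6 arrays), and with the replicate block for SWEET16 (1.17, adjusted p = 0.0341). The sign turned for uncalled differences of SWEET17, in ssi2 act1 against ssi2 without both arrays (-0.20) and in ssi2 sid2 against wild type after quantile normalization (0.014) and without both arrays (0.29). The cause was not tested.

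Without 1 array at a time, differences in ssi2 against wild type ranged from 1.36 to 2.34 for SWEET1, -1.58 to -1.20 for SWEET16 and -2.69 to -1.32 for SWEET17. In ssi2 act1 against ssi2 they were -1.86 to -1.54 for SWEET1 and -0.20 to 1.17 for SWEET17, in ssi2 sid2 against ssi2 -0.52 to 0.10 and 1.30 to 2.67, and in ssi2 sid2 against wild type 1.08 to 2.06 and -0.28 to 0.29. SWEET1 in ssi2 act1 against wild type had -0.37 to 0.60. Between ssi2 act1 and ssi2 sid2 the ranges were -1.84 to -1.21, 0.89 to 1.47 and -1.78 to -1.30 for SWEET1, SWEET16 and SWEET17.

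Same-numbered arrays of different genotypes deviated together with r from -0.383 to 0.335, above 0.1 in 6 of 18 pairs. Arrays with different numbers had r from -0.379 to 0.465, above 0.1 in 13 of 36 pairs. The numbers were therefore not taken to pair samples. Median centring moved the median of all probe sets in ssi2 against wild type from 0.08 to -0.22 and the percentage of calls in the higher direction from 57.1% to 34.1% (44.4% after quantile normalization). Relative to that median SWEET1, SWEET16 and SWEET17 were at 1.73, -1.45 and -2.17. In ssi2 act1 against ssi2 the share went from 37.8% to 62.9% (50.9%), in ssi2 sid2 against ssi2 from 45.3% to 61.4%, in ssi2 sid2 against wild type from 56.4% to 43.7%, and between ssi2 act1 and ssi2 sid2 from 38.1% to 50.9%. Over the alternatives, higher and lower calls ranged from 697 to 1768 and 464 to 1719 (1312 and 987 as reported) in ssi2 against wild type, 298 to 1382 and 589 to 1936 (720 and 1183) in ssi2 act1 against ssi2, 109 to 505 and 124 to 621 (322 and 389) in ssi2 sid2 against ssi2, 30 to 294 and 62 to 505 (151 and 256) in ssi2 act1 against wild type, 269 to 1194 and 192 to 1052 (823 and 635) in ssi2 sid2 against wild type, and 103 to 1110 and 313 to 1566 (555 and 901) between the double mutants.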
